A study of Mus musculus with 13 samples.

Results

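Gamma delta intraepithelial lymphocytes of the mouse small intestine were compared 5 hours after interferon alpha (IFNa) or saline, in mice whose gamma delta T cell receptor had not been bound by antibody beforehand. The comparison used 7 of the 13 libraries of the series, 4 IgG-IFNa and 3 IgG-PBS libraries, all those that the sample titles put in these groups. Genes on chromosomes X and Y were left out, and 162 classic antiviral genes were set aside so that the rest of the response could be described. Of 15835 genes tested, 15318 were autosomal, and 15161 of these were outside the antiviral list, on which 157 genes were tested.

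IgG-IFNa mice were wild type and received 200 µg of Armenian hamster IgG into the peritoneum, then 1 µg of murine IFNa into a vein 5 h before cells were isolated. IgG-PBS mice, also wild type, received the same IgG and phosphate buffered saline (PBS). In the other arm, UC7-13D5, a hamster antibody to the gamma delta T cell receptor, took the place of IgG at the same dose, giving 3 UC7-IFNa and 3 UC7-PBS libraries. The labels' protocol puts the antibody or IgG injections at 48 and 24 h before isolation, whereas the design text can be read as 1 injection at either time, so the number of injections per mouse is unclear. Age, sex, the sort gate and the number of mice per library are not stated in the labels. The titles number the libraries of each group as biological replicates, and p-values measure the spread between them.

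Type I interferons act through a receptor made of the Ifnar1 and Ifnar2 products. Its Janus kinases phosphorylate STAT proteins, which with IRF9 occupy interferon-stimulated response elements (ISRE) of antiviral genes, and they also activate STAT dimers, which occupy gamma-activated sites (GAS). Gamma delta intraepithelial lymphocytes live between the epithelial cells of the gut, hold large stores of granzymes, depend on interleukin 15, and carry an activated but restrained program in which receptor and cytokine signals set transcription factors, metabolism and surface receptors.

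Library totals were 25163216 to 26895876 estimated counts in IgG-IFNa, against 24243111 to 26183710 in IgG-PBS, and values below are CPM (counts scaled to a common library size, here with TMM factors) unless another unit is named. All 14 markers of these cells were above 0 in every one of the 7 libraries. So were the 10 alpha beta T cell markers, so presence alone does not check the label. The 14 summed to 52332 to 63545 CPM in IgG-IFNa and 46597 to 50580 CPM in IgG-PBS libraries. Gzma and Gzmb made up most of these sums, and the other 12 markers summed to 12846 to 14594 against 11887 to 14069 CPM. Markers of other cells were present in both groups: 10 alpha beta T cell markers at 1517 to 2148 against 1527 to 1892 CPM, 28 absorptive enterocyte markers at 554 to 766 against 543 to 868 CPM, and 20 goblet and Paneth cell markers at 868 to 1631 against 147 to 841 CPM. The alpha beta sums were mostly Trbc1, Trbc2 and Trac, and the enterocyte sums mostly Cdh1, Epcam and Dpp4. Both say little about the other members of their lists. The 10 B and plasma cell markers summed to 583 to 613 against 438 to 629 CPM, the 16 myeloid markers to 124 to 184 against 138 to 145 CPM, and the 8 stromal markers to 22.5 to 36.2 against 22.5 to 27.3 CPM. The median log2 fold change over the tested members was -0.28 for alpha beta T cell, 0.06 for enterocyte, 1.35 for goblet and Paneth cell, 0.56 for B and plasma cell, 0.76 for myeloid and 0.33 for stromal markers. Of the 27 tested enterocyte markers, 14 were above 0 and 13 below. Their median depended on single libraries and ran from -0.30 to 0.91 over 20 other settings, highest without IgG-PBS library 3. Of the receptor chains, Trdc (delta) averaged 179 ± 12.2 CPM in IgG-IFNa and 181 ± 25.2 CPM in IgG-PBS libraries. The alpha beta chain genes Trbc2 and Trac were present as well, Trbc2 at 842 ± 167 CPM in IgG-IFNa and 717 ± 109.7 CPM in IgG-PBS libraries and Trac at 223 ± 26.1 CPM in IgG-IFNa and 201 ± 39.8 CPM in IgG-PBS libraries. CPM are not per length and do not rank these genes. Among the markers of other cells, S100a8 was at 0 in all 7 libraries. Those at 0 in at least 1 library were 5 of 16 myeloid, 5 of 8 stromal and 3 of 10 B and plasma cell markers. So were 1 of 28 enterocyte and 1 of 20 goblet and Paneth cell markers. Cd79a, Mzb1, Dcn, Col3a1 and Spdef were among them. The 4 Y-linked transcripts summed to 2.15, 1.67, 210.0 and 320.3 CPM in IgG-IFNa libraries 1 to 4, against at most 0.310 CPM in IgG-PBS libraries, while Xist was at 204, 215, 68.3 and 23.4 CPM against 265 to 345 CPM. IgG-IFNa libraries 3 and 4 thus differed from the other 5 in transcripts of the sex chromosomes. Counts of called genes are given with and without them, as are the values of some genes. The closing section lists the named genes that were not called in the 5 remaining IgG libraries. All UC7 libraries had at least 132 CPM of Y-linked transcripts, so the antibody arms differed in this property too, which also varied within the IgG arm. Library 2 of UC7-IFNa stood apart from the other 12 on the first principal component, and it enters the shared estimate of spread.

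Outside the antiviral list, 68 autosomal genes were higher (0.449% of those tested) and 32 were lower (0.211%) in IgG-IFNa than in IgG-PBS libraries, at an adjusted p under 0.05 in edgeR's quasi-likelihood test. For each of the 100 the libraries of the groups were fully apart, as they were for 13.6% of all genes tested. The log2 fold change of a gene when each of the 7 IgG libraries was left out in turn is given below as a range in parentheses after its call. On the antiviral list 29 of 157 genes were higher. At an unadjusted p under 0.05, 892 of the 15161 genes were higher (5.88%) and 696 were lower (4.59%), 10.5% in all, the shares against which such counts of list members below are to be read. Counts of called list members are to be read against the shares called, 0.449% higher and 0.211% lower (0.66% in all). The lists were chosen with earlier results of these data known, so these comparisons are descriptions. The median log2 fold change was 0.95 over the 68 and -1.04 over the 32, against -0.01 over all 15161, and 28 of the higher and 17 of the lower genes changed by more than 2-fold. These counts depend on single libraries: 89, 61, 17 and 21 genes passed without IgG-IFNa library 1, 2, 3 or 4, and 9, 21 and 6 without IgG-PBS library 1, 2 or 3. Without UC7-IFNa library 2, 365 passed, 98 of the 100 among them, and the 7 IgG libraries fitted alone gave 281, with 96 of the 100. With both IgG-IFNa libraries 3 and 4 left out, 2 genes passed when the UC7 libraries were kept in the fit (Dgat1 and Ctss), while the 5 remaining IgG libraries fitted alone gave 108, with 57 of the 100. The direction of all 100 was the same in every one of these fits that tested them.

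IgG-IFNa libraries 3 and 4 gave the larger change for many of these genes. Both lay above libraries 1 and 2 for 43 of the 68 higher genes (63.2%, against 29.7% of all genes with a positive value), and both lay below them for 19 of the 32 lower genes (59.4%, against 27.4% of all genes with a negative value). In the IgG-PBS group, library 3, which had the highest share of mitochondrial transcripts (1.73%), was lowest for 38 of the 68 higher genes (55.9%, against 36.7% of all genes with a positive value) and highest for 17 of the 32 lower genes (53.1%, against 38.7% of all genes with a negative value). The part of the sex chromosome difference and of the mitochondrial share in these sizes was not tested. In bulk RNA, a change in how many cells express a gene and a change in the RNA per cell cannot be told apart, and this holds for each result that follows.

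**Figure D1:**
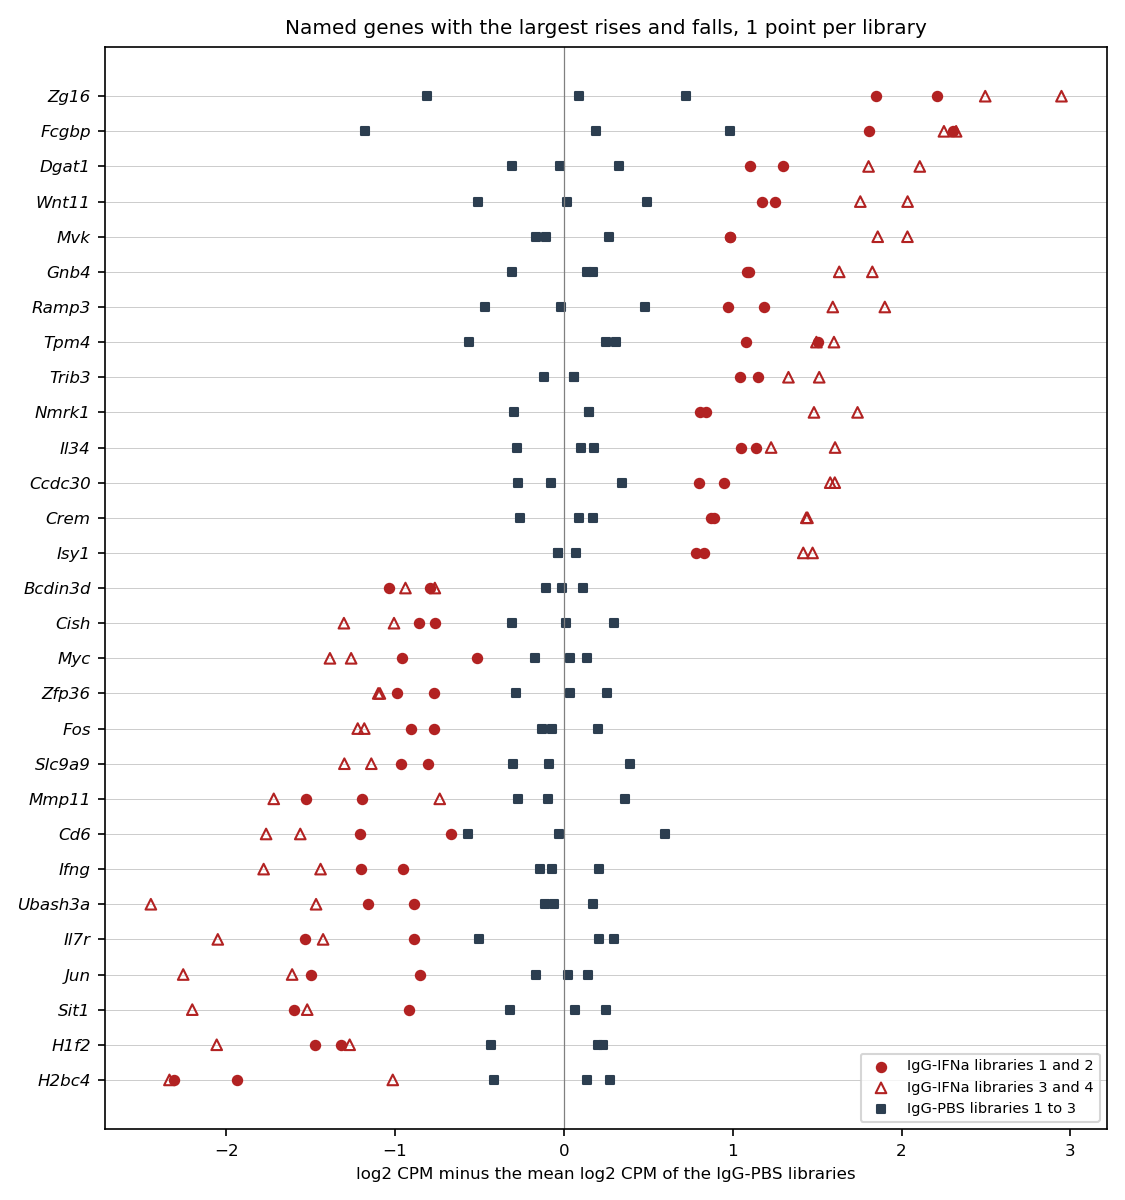
Level of the genes with the largest rises (upper rows) and falls (lower rows) in each IgG library, as log2 CPM minus the mean log2 CPM of the IgG-PBS libraries; filled circles are IgG-IFNa libraries 1 and 2, open triangles IgG-IFNa libraries 3 and 4, and squares IgG-PBS libraries. In none of the genes drawn do the groups overlap, and for Dgat1, Mvk and Nmrk1 the triangles lie beyond the circles. Slc15a2, which was nearly absent from IgG-PBS libraries, is not drawn.

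Among 175 transcription factors tested, 4 rose and 3 fell (4%, against 0.66% of all genes tested). The median log2 fold change was 0.01 over the class. The factors that rose were Crem, Stat3, Nfkb2 and Relb, and those that fell were Jun, Fos and Myc. Crem encodes a leucine zipper factor of the cyclic AMP pathway, some isoforms of which repress transcription. It lies on chromosome 18 (ENSMUSG00000063889) and had 893, 904, 1321 and 1328 CPM in IgG-IFNa libraries 1 to 4, against 519, 551 and 407 CPM in IgG-PBS libraries 1 to 3. Every IgG-IFNa library was above every IgG-PBS library, with libraries 3 and 4 highest (log2 fold change 1.17, SE 0.19, edgeR adjusted p = 0.00873). Crem was 1 of 21 CREB, ATF and C/EBP factors tested, a list with a median of 0.04.

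Stat3 encodes the signal transducer that many cytokine receptors, those for interleukins 6, 10 and 21 among them, use beside interferon receptors (ENSMUSG00000004040, chromosome 11, 100775924 to 100830367 on mm39). Its level was 950.3, 1203, 1159.5 and 1441 CPM in the IgG-IFNa libraries, against 534, 715 and 619.9 CPM in the IgG-PBS libraries, with no overlap and the highest value in library 4 (log2 fold change 0.93, SE 0.18, edgeR adjusted p = 0.0227). It was the 1 called member of 12 IRF and STAT factors outside the antiviral list, whose median was 0.01. Irf1, an interferon-induced regulator, had 348, 345, 346 and 387 CPM in the IgG-IFNa libraries, against 372, 311 and 377 CPM in the IgG-PBS libraries, and its groups overlapped (log2 fold change 0.01, SE 0.14, edgeR adjusted p = 0.987).

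Nfkb2 and Relb encode the paired subunits of the alternative NF-kB pathway, which receptors of the tumour necrosis factor family drive. Nfkb2 (ENSMUSG00000025225, chromosome 19, 46292759 to 46300825 on mm39) had 107, 121, 118 and 152 CPM in the IgG-IFNa libraries, against 66.2, 57.8 and 71.6 CPM in the IgG-PBS libraries (log2 fold change 0.93, SE 0.18, edgeR adjusted p = 0.0208). Relb (ENSMUSG00000002983, chromosome 7, 19340142 to 19363364 on mm39) had 78.6, 87.1, 90.2 and 111 CPM in the IgG-IFNa libraries, against 54.1, 44.2 and 59.5 CPM in the IgG-PBS libraries (log2 fold change 0.80, SE 0.18, edgeR adjusted p = 0.0468). Both were higher in each IgG-IFNa library than in any IgG-PBS library, and they were the 2 called genes of 9 NF-kB and NFAT factors, whose median was 0.06. Crem lost its call without IgG-PBS 1 or 3 (1.06 to 1.27). Stat3 and Relb kept their calls only without IgG-IFNa 1 (0.83 to 1.04 and 0.69 to 0.90). Nfkb2 kept its call only without IgG-IFNa 1 or 2 (0.82 to 1.01). In the 5 libraries nearly free of Y-linked transcripts, the log2 fold changes were 0.87 for Crem, 0.80 for Stat3 and 0.81 for Nfkb2, all called, and 0.66 for Relb (adjusted p = 0.0572).

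Jun and Fos encode the 2 partners of the AP-1 factor, which rises within minutes of many stimuli, including the handling of tissue. Jun (ENSMUSG00000052684, chromosome 4, 94937271 to 94940460 on mm39) had 549, 858, 325 and 508 CPM in the IgG-IFNa libraries, against 1709, 1381 and 1579 CPM in the IgG-PBS libraries (log2 fold change -1.47, SE 0.26, edgeR adjusted p = 0.0159). Fos (ENSMUSG00000021250, chromosome 12, 85520664 to 85524048 on mm39) had 799.9, 878, 643 and 661 CPM in the IgG-IFNa libraries, against 1727, 1369 and 1425 CPM in the IgG-PBS libraries (log2 fold change -1.02, SE 0.14, edgeR adjusted p = 0.00379). The 4 IgG-IFNa values were below all 3 IgG-PBS values for both genes, and Jun was lowest in IgG-IFNa library 3. The other 16 tested AP-1 and MAF factors were not called, and the list's median was 0.01. Myc, the growth factor-induced regulator of ribosome and nucleotide synthesis (ENSMUSG00000022346, chromosome 15, 61857240 to 61862224 on mm39), had 76.4, 104, 56.7 and 61.9 CPM in the IgG-IFNa libraries, against 152, 132 and 163 CPM in the IgG-PBS libraries, again without overlap (log2 fold change -0.99, SE 0.20, edgeR adjusted p = 0.0309). Fos kept its call in all 7 omissions of 1 library (-1.10 to -0.90). Jun lost its call without IgG-IFNa 4 or IgG-PBS 1 or 3 (-1.76 to -1.29). Myc kept its call only without IgG-IFNa 2 (-1.19 to -0.88). In the 5 libraries Jun (-1.14) and Fos (-0.84) were called, and Myc had -0.72 (adjusted p = 0.0524).

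Of the lymphocyte lineage factors, 0 of 61 were called by edgeR, with a median of 0.02 and 6 higher and 6 lower at an unadjusted p under 0.05 (DESeq2 called 3 higher and 1 lower and limma 0). Tbx21, encoding T-bet, averaged 284 ± 45.1 CPM in IgG-IFNa and 273 ± 6.51 CPM in IgG-PBS libraries, and Runx3, needed for cytotoxic T cells, 260.4 ± 25.95 CPM in IgG-IFNa and 249.8 ± 51.1 CPM in IgG-PBS libraries (SD, n = 4 and 3). The log2 fold changes were 0.06 ± 0.14 and 0.06 ± 0.16 (SE). Ahr, a sensor of dietary and microbial ligands that these cells need for survival, had -0.0023 ± 0.18, Hif1a, the oxygen-responsive factor, 0.06 ± 0.22, and Prdm1, encoding Blimp-1, -0.34 ± 0.22. Of the early zinc finger and nuclear receptor factors, 0 of 14 were called by edgeR, with a median of -0.25 and 6 lower at an unadjusted p under 0.05 (DESeq2 called 4 lower and limma 1 lower). Nr4a1, which T cell receptor signals induce, is on that list and had 453, 496, 253 and 238 CPM in the IgG-IFNa libraries, against 686, 619 and 641 CPM in the IgG-PBS libraries, lower in every IgG-IFNa library without passing the threshold (log2 fold change -0.85, SE 0.22, edgeR adjusted p = 0.104). It passed without IgG-IFNa library 2 (-1.04), without UC7-IFNa library 2 (-0.85) and with DESeq2 (-0.85, adjusted p = 0.0165), and had -0.45 in the 5 libraries.

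**Figure D2:**
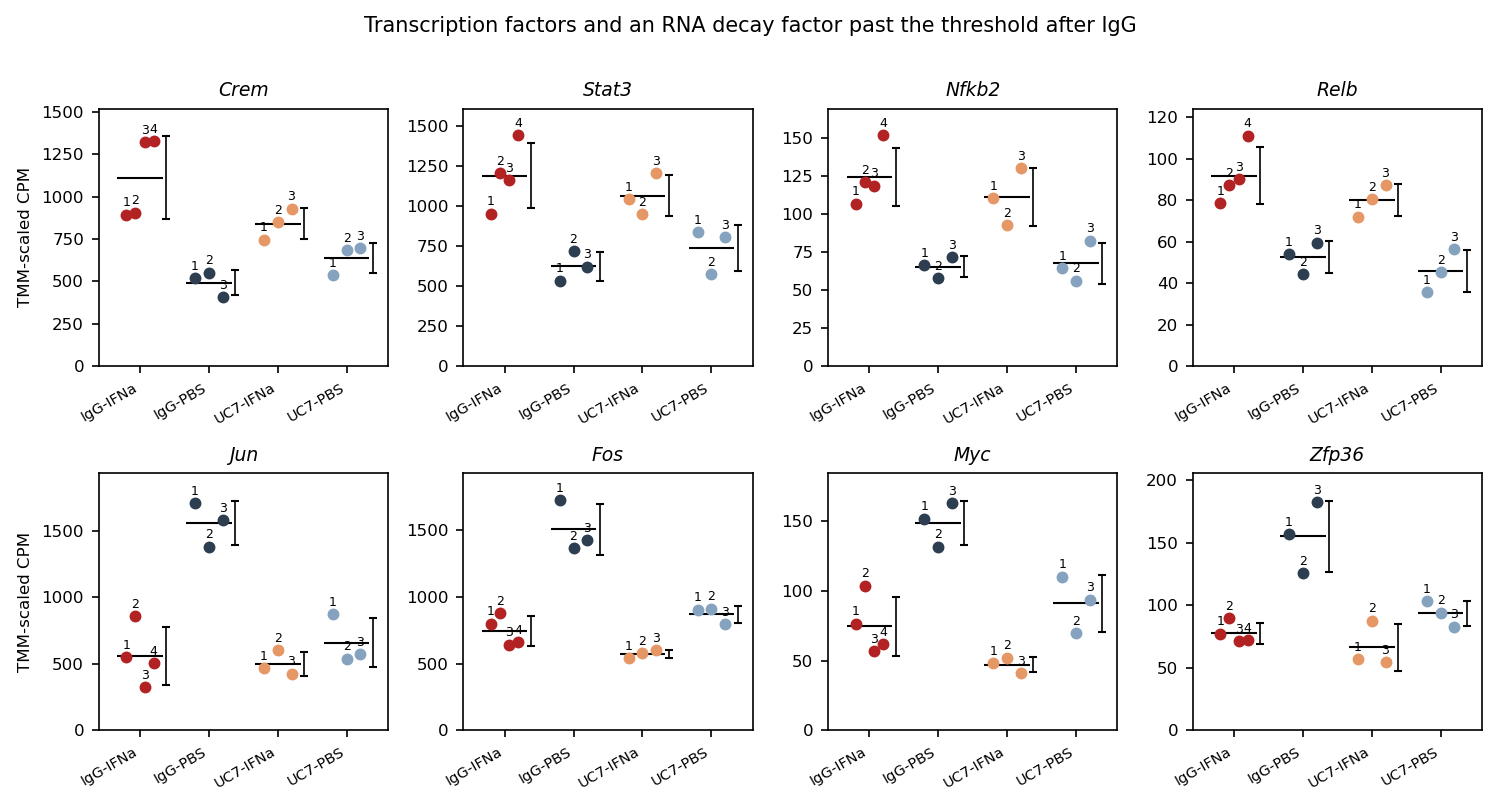
CPM of 8 regulators in each library of the 4 groups, each IFNa group left of its PBS group; points are libraries numbered by replicate, the line is the mean and the bar the SD. Crem, Stat3, Nfkb2 and Relb are higher in all 4 IgG-IFNa libraries than in the 3 IgG-PBS libraries, and Jun, Fos, Myc and Zfp36 are lower in all 4.

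Among 232 metabolic genes tested, 6 rose and 1 fell (3.02%, against 0.66% of all genes tested), with a median log2 fold change of 0.0031. The largest rise was that of Dgat1, which encodes the enzyme of the last step of triglyceride synthesis and lies on chromosome 15, 76386215 to 76396154 on mm39 (ENSMUSG00000022555). It had 577, 661, 939 and 1158 CPM in IgG-IFNa libraries 1 to 4, against 265, 337 and 217 CPM in IgG-PBS libraries 1 to 3. All 4 IgG-IFNa values were above the highest IgG-PBS value, and libraries 3 and 4 were the highest (log2 fold change 1.61, SE 0.23, edgeR adjusted p = 0.00422). Dgat1 kept its call in all 7 omissions of 1 library (1.41 to 1.79). Its log2 fold change was 1.19 in the 5 libraries nearly free of Y-linked transcripts (adjusted p = 0.00453). The other 49 tested genes of triglyceride, lipid droplet and fatty acid metabolism were not called, and the list's median was 0.08. Cpt1a, the entry point of fatty acids into mitochondria, averaged 58.2 ± 9.80 CPM in IgG-IFNa and 54.3 ± 5.29 CPM in IgG-PBS libraries, a log2 difference of 0.10 ± 0.21, and the fatty acid transporter Cd36 did not pass the filter on low counts.

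Sterol synthesis turns acetyl-CoA into mevalonate, then into isoprenoids and cholesterol, and its enzymes are transcribed together by SREBP factors. Of 26 tested genes of this list, 2 rose, Mvk and Idi1, and 0 fell. Mvk, encoding mevalonate kinase (ENSMUSG00000041939, chromosome 5, 114582330 to 114598653 on mm39), had 82.2, 82.4, 151 and 170.4 CPM in the IgG-IFNa libraries, against 37.1, 50.1 and 38.7 CPM in the IgG-PBS libraries, highest in libraries 3 and 4 (log2 fold change 1.53, SE 0.27, edgeR adjusted p = 0.0169). Idi1, encoding the isomerase that makes the isoprenoid building block (ENSMUSG00000058258, chromosome 13, 8935537 to 8942488 on mm39), had 167, 178, 147 and 168 CPM in the IgG-IFNa libraries, against 101, 99.5 and 108 CPM in the IgG-PBS libraries, with no such excess in libraries 3 and 4 (log2 fold change 0.68, SE 0.13, edgeR adjusted p = 0.021). The groups did not overlap for either gene. Mvk kept its call only without IgG-IFNa 1 or 2 (1.33 to 1.68). Idi1 kept its call only without IgG-IFNa 1 or 3 (0.64 to 0.73).

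Most other members of the sterol list were also higher without passing the threshold. Its median log2 fold change was 0.44, 22 of 26 members were above 0, and 15 were higher without overlap between the groups (57.7%, against 6.63% of all genes tested). At an unadjusted p under 0.05 there were 15 higher (57.7%, against 5.88% of all genes tested) and 0 lower. Cyp51, lanosterol demethylase, averaged 267 ± 40.7 CPM in IgG-IFNa and 175 ± 12.1 CPM in IgG-PBS libraries (log2 fold change 0.61, SE 0.16, edgeR adjusted p = 0.114). Sqle, squalene epoxidase, had 0.54 ± 0.16 on the log2 scale. The export genes Abca1 and Abcg1 had -0.10 ± 0.91 and 0.02 ± 0.16. The list's median ran from 0.38 to 0.49 over 20 other settings. It was 0.46 in the 5 libraries nearly free of Y-linked transcripts, where 4 members were called, against 5 in the 7 IgG libraries, 6 with DESeq2 and 8 without UC7-IFNa library 2. The 13-library fit called 0 members without IgG-IFNa libraries 3 and 4, 0 without each of IgG-PBS libraries 1, 2 and 3, and 0 with the replicate number as a block, at medians of 0.46, 0.40, 0.49, 0.38 and 0.41. In the UC7 arm its median was 0.33, with 23 of 26 members above 0, while the median of UC7-PBS minus IgG-PBS was -0.0041.

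**Figure D3:**
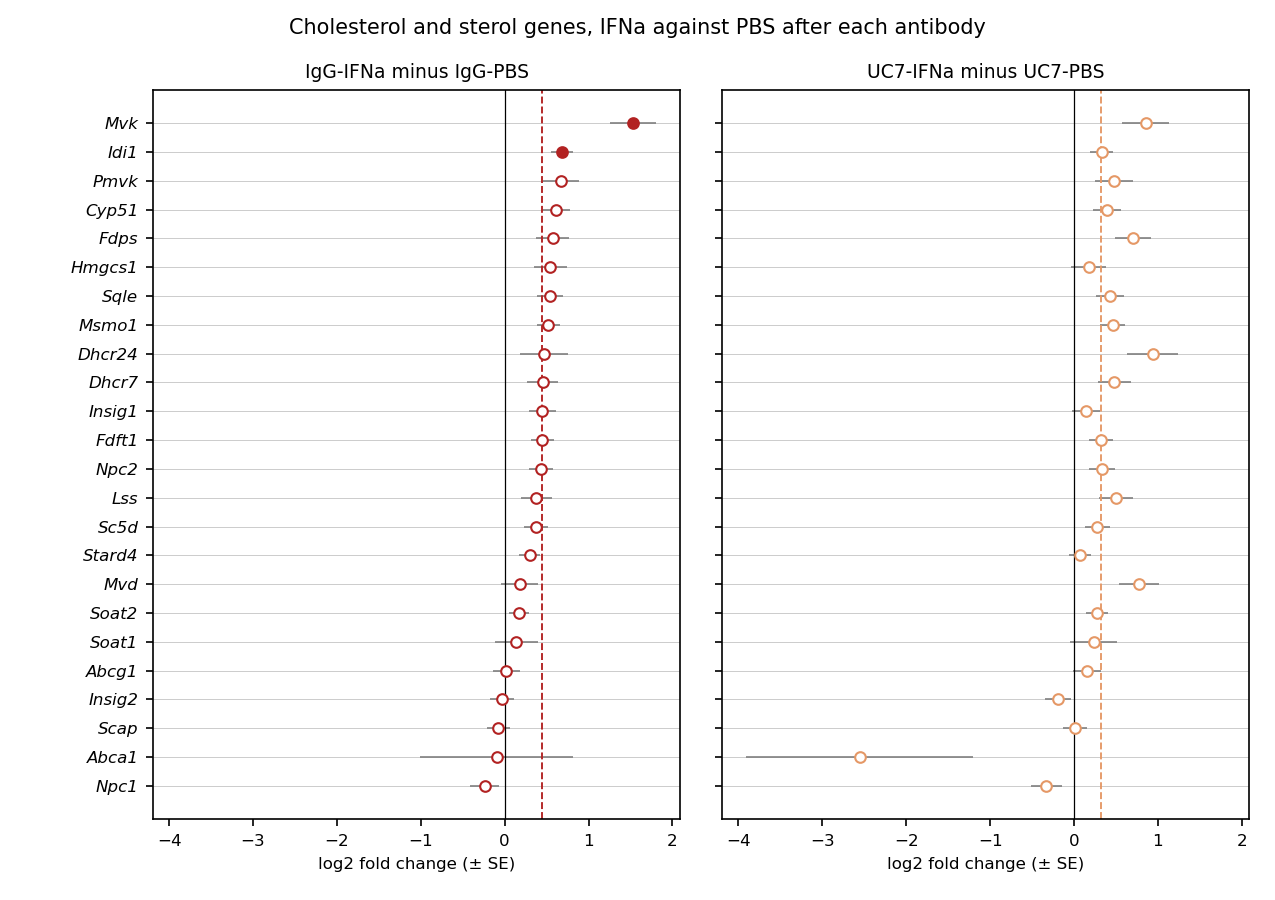
Log2 fold change of 24 of the 26 sterol genes, IgG-IFNa against IgG-PBS (left) and UC7-IFNa against UC7-PBS (right); bars are 1 SE, filled points passed the threshold, and the dashed line is the median of all 26. Mvk and Idi1 are the filled points of the IgG arm, whose median is 0.44, against 0.33 in the UC7 arm.

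Genes of the integrated stress response and amino acid metabolism gave 2 rises among 45, Trib3 and Got1, with a median of 0.10. Trib3, a pseudokinase that the factor ATF4 induces (ENSMUSG00000032715, chromosome 2, 152179342 to 152185953 on mm39), had 14.6, 15.8, 17.8 and 20.2 CPM in the IgG-IFNa libraries, against 6.54, 7.39 and 7.40 CPM in the IgG-PBS libraries, without overlap (log2 fold change 1.27, SE 0.18, edgeR adjusted p = 0.00369). Got1, the cytosolic aspartate aminotransferase (ENSMUSG00000025190, chromosome 19, 43488191 to 43513045 on mm39), had 128, 156, 161 and 181 CPM in the IgG-IFNa libraries, against 86.99, 94.5 and 84.3 CPM in the IgG-PBS libraries, also without overlap (log2 fold change 0.82, SE 0.15, edgeR adjusted p = 0.0205). Slc16a3, which encodes a lactate exporter, was the 1 called gene of 34 glycolysis and lactate genes. It had 33.9, 36.5, 32.6 and 36.7 CPM in the IgG-IFNa libraries, against 20.2, 21.9 and 20.3 CPM in the IgG-PBS libraries (log2 fold change 0.75, SE 0.14, edgeR adjusted p = 0.0232). That list's median was -0.13 and ran from -0.17 to -0.0064 over 20 other settings. It was -0.0064 in the 5 libraries nearly free of Y-linked transcripts, where 17 of 34 members were above 0. Ldha, lactate dehydrogenase A, averaged 946 ± 85.8 CPM in IgG-IFNa and 963 ± 145 CPM in IgG-PBS libraries (-0.03 ± 0.16). Hk2, the inducible hexokinase, had 5.22, 4.94, 7.54 and 8.88 CPM in the IgG-IFNa libraries, against 4.32, 4.13 and 4.42 CPM in the IgG-PBS libraries, with the higher values in libraries 3 and 4 (log2 fold change 0.63, SE 0.31, edgeR adjusted p = 0.5). Of the tricarboxylic acid cycle genes and mitochondrial carriers, 0 of 34 were called by edgeR, with a median of -0.06 and 2 higher at an unadjusted p under 0.05 (DESeq2 called 0 and limma 0). Transcripts encoded by mitochondria made up 0.676, 0.582, 0.801 and 0.612% of the IgG-IFNa libraries, against 0.866, 0.946 and 1.73% of the IgG-PBS libraries.

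A pair of genes of NAD synthesis moved in opposite directions. Nmrk1, the kinase that turns nicotinamide riboside into nicotinamide mononucleotide (ENSMUSG00000037847, chromosome 19, 18609314 to 18629793 on mm39), had 182, 187, 291 and 348 CPM in the IgG-IFNa libraries, against 115, 115 and 84.96 CPM in the IgG-PBS libraries, with libraries 3 and 4 highest (log2 fold change 1.26, SE 0.22, edgeR adjusted p = 0.0158). Nmnat3, the adenylyltransferase of the following step in mitochondria (ENSMUSG00000032456, chromosome 9, 98169488 to 98302492 on mm39), had 9.46, 10.9, 10.03 and 11.6 CPM in the IgG-IFNa libraries, against 15.4, 21.997 and 20.6 CPM in the IgG-PBS libraries (log2 fold change -0.88, SE 0.19, edgeR adjusted p = 0.0408). Nmnat3 was the 1 called gene of 43 nucleotide and NAD genes, whose median was -0.06, and Nmrk1, not on that list, was among the 15 largest rises. Trib3 kept its call in all 7 omissions of 1 library (1.18 to 1.34). Got1 kept its call only without IgG-IFNa 1 or 2 (0.75 to 0.91). Slc16a3 kept its call only without IgG-IFNa 1 (0.72 to 0.79). The direction of each held in every omission. Nmrk1 kept its call only without IgG-IFNa 1, 2 or 4 (1.06 to 1.39). Nmnat3 lost its call in each omission (-1.02 to -0.78).

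Among 185 receptors tested, 1 rose and 3 fell (2.16%, against 0.66% of all genes tested), with a median log2 fold change of 0.08. The balance changed with the fit: DESeq2 called 14 higher and 6 lower, the 7 IgG libraries alone 10 and 3, and limma 2 and 3. Without UC7-IFNa library 2 there were 16 and 5, and without 1 IgG library at most 1 and 4. Without overlap, 9 of 30 cytokine and growth factor receptors were higher (30%) and 2 lower (6.67%), against 6.63% and 6.99% of all genes tested. For 22 costimulatory and death receptors these were 6 (27.3%) and 4 (18.2%). The 1 rise called by edgeR in all 13 libraries was that of Il21r, which encodes the interleukin 21 receptor chain (ENSMUSG00000030745, chromosome 7, 125202601 to 125232743 on mm39). It had 1225, 1435, 1278 and 1547 CPM in IgG-IFNa libraries 1 to 4, against 813, 767 and 875 CPM in IgG-PBS libraries 1 to 3. The groups did not overlap, and IgG-IFNa libraries 3 and 4 were not set apart from 1 and 2 (log2 fold change 0.75, SE 0.16, edgeR adjusted p = 0.0426). Il2rb, the chain shared by interleukin 2 and interleukin 15 receptors, had 1761, 1981, 1884 and 2348 CPM in the IgG-IFNa libraries, against 1271, 1117 and 1521 CPM in the IgG-PBS libraries, higher in each IgG-IFNa library without passing the threshold (log2 fold change 0.61, SE 0.17, edgeR adjusted p = 0.138). Ifnar1 had 153, 187, 161 and 203 CPM in the IgG-IFNa libraries, against 119, 119 and 101 CPM in the IgG-PBS libraries, also without overlap and without passing (log2 fold change 0.64, SE 0.20, edgeR adjusted p = 0.198), while Ifnar2 averaged 81.7 ± 5.78 CPM in IgG-IFNa and 85.3 ± 1.95 CPM in IgG-PBS libraries (-0.06 ± 0.12). Both Il2rb and Ifnar1 passed in the 7 IgG libraries fitted alone (edgeR adjusted p = 0.0388 and 0.0223) and without UC7-IFNa library 2 (0.0433 and 0.0087). DESeq2 called Il2rb (adjusted p = 0.0248) and not Ifnar1 (0.0765). Il15ra averaged 34.3 ± 2.84 CPM in IgG-IFNa and 39.6 ± 8.40 CPM in IgG-PBS libraries (-0.21 ± 0.17).

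Il7r, Cd69 and Cd6 fell. Il7r encodes the interleukin 7 receptor, which maintains resting lymphocytes (ENSMUSG00000003882, chromosome 15, 9505874 to 9530263 on mm39). It had 17.6, 27.5, 18.99 and 12.3 CPM in the IgG-IFNa libraries, against 36.1, 58.9 and 62.6 CPM in the IgG-PBS libraries, lowest in IgG-IFNa library 4 (log2 fold change -1.46, SE 0.27, edgeR adjusted p = 0.0208). Cd69 encodes a surface lectin that keeps lymphocytes in tissue by opposing the sphingosine phosphate receptor (ENSMUSG00000030156, chromosome 6, 129244288 to 129252400 on mm39). It had 522, 556, 331 and 331 CPM in the IgG-IFNa libraries, against 835, 819 and 746 CPM in the IgG-PBS libraries, without overlap and with libraries 3 and 4 lowest (log2 fold change -0.88, SE 0.19, edgeR adjusted p = 0.0427). Cd6 encodes a scavenger family receptor that modulates T cell receptor signals (ENSMUSG00000024670, chromosome 19, 10766705 to 10807423 on mm39) and had 39.2, 56.8, 26.6 and 30.6 CPM in the IgG-IFNa libraries, against 60.9, 88.6 and 137 CPM in the IgG-PBS libraries, where the highest IgG-IFNa and lowest IgG-PBS values were close (log2 fold change -1.32, SE 0.29, edgeR adjusted p = 0.0468).

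Cd6 is also on the list of alpha beta T cell markers, and Il7r is abundant in those cells. Cd8b1, a defining gene of that list, was at 3.88, 13.2, 7.86 and 8.19 CPM in IgG-IFNa, against 16.7, 46.4 and 26.4 CPM in IgG-PBS libraries (log2 fold change -1.84, SE 0.58, edgeR adjusted p = 0.218). None of the 10 markers was at 0 in any of the 7 libraries. Their summed level was 1517 to 2148 against 1527 to 1892 CPM, most of it Trbc1, Trbc2 and Trac. Such a sum says little about the other members. Of the 8 tested, 3 were above 0 and 5 below. Cd6 and Cd8b1 were the 2 lower without overlap (25%, against 6.99% of all genes tested). The part of such cells in the falls of Cd6 and Il7r was not tested. Il7r kept its call only without IgG-IFNa 2 or IgG-PBS 1 (-1.69 to -1.30). Cd69 kept its call only without IgG-IFNa 1 or 2 (-1.02 to -0.77). Cd6 kept its call only without IgG-IFNa 2 (-1.57 to -0.96). Their direction held in each omission, whereas the call did not. Il21r lost its call in each omission (0.68 to 0.80). In the 5 libraries nearly free of Y-linked transcripts Il21r was called (0.71), and Il7r, Cd69 and Cd6 had -1.21, -0.57 and -0.99 with adjusted p values of 0.103, 0.0766 and 0.418.

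The receptor itself did not pass. Of its constant regions and CD3 chains, 0 of 10 were called by edgeR, with a median of 0.04 and 0 at an unadjusted p under 0.05 (DESeq2 called 0 and limma 0). Trdc averaged 179 ± 12.2 CPM in IgG-IFNa and 181 ± 25.2 CPM in IgG-PBS libraries (-0.02 ± 0.13), Trgc2 877 ± 61.8 CPM in IgG-IFNa and 928 ± 24.1 CPM in IgG-PBS libraries (-0.08 ± 0.12) and Cd3e 939 ± 85.7 CPM in IgG-IFNa and 1090.3 ± 203 CPM in IgG-PBS libraries (-0.22 ± 0.21). Itgae, the integrin chain that binds epithelial E-cadherin, averaged 1838 ± 305 CPM in IgG-IFNa and 1679 ± 136 CPM in IgG-PBS libraries (0.13 ± 0.22). Of the natural killer receptors, 0 of 35 were called by edgeR, with a median of -0.09 and 3 higher and 5 lower at an unadjusted p under 0.05 (DESeq2 called 1 higher and 2 lower and limma 0). Klrk1, encoding NKG2D, averaged 12.4 ± 4.55 CPM in IgG-IFNa and 10.9 ± 3.07 CPM in IgG-PBS libraries (0.20 ± 0.28). Of the chemokine and other G protein-coupled receptors, 0 of 38 were called by edgeR, with a median of -0.03 and 6 higher and 5 lower at an unadjusted p under 0.05 (DESeq2 called 2 higher and limma 0). Ccr9, the gut homing receptor, averaged 277 ± 53.9 CPM in IgG-IFNa and 319 ± 36.6 CPM in IgG-PBS libraries (-0.21 ± 0.16). Of the inhibitory receptors and their ligands, 0 of 26 were called by edgeR, with a median of 0.29 and 8 higher and 1 lower at an unadjusted p under 0.05 (DESeq2 called 1 higher and limma 0). Pdcd1, encoding PD-1, had 0.40 ± 0.25 and Lag3 had 0.23 ± 0.20, both with overlapping groups. Of the adhesion receptors, 0 of 26 were called by edgeR, with a median of 0.07 and 4 higher and 3 lower at an unadjusted p under 0.05 (DESeq2 called 2 higher and 1 lower and limma 0).

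**Figure D4:**
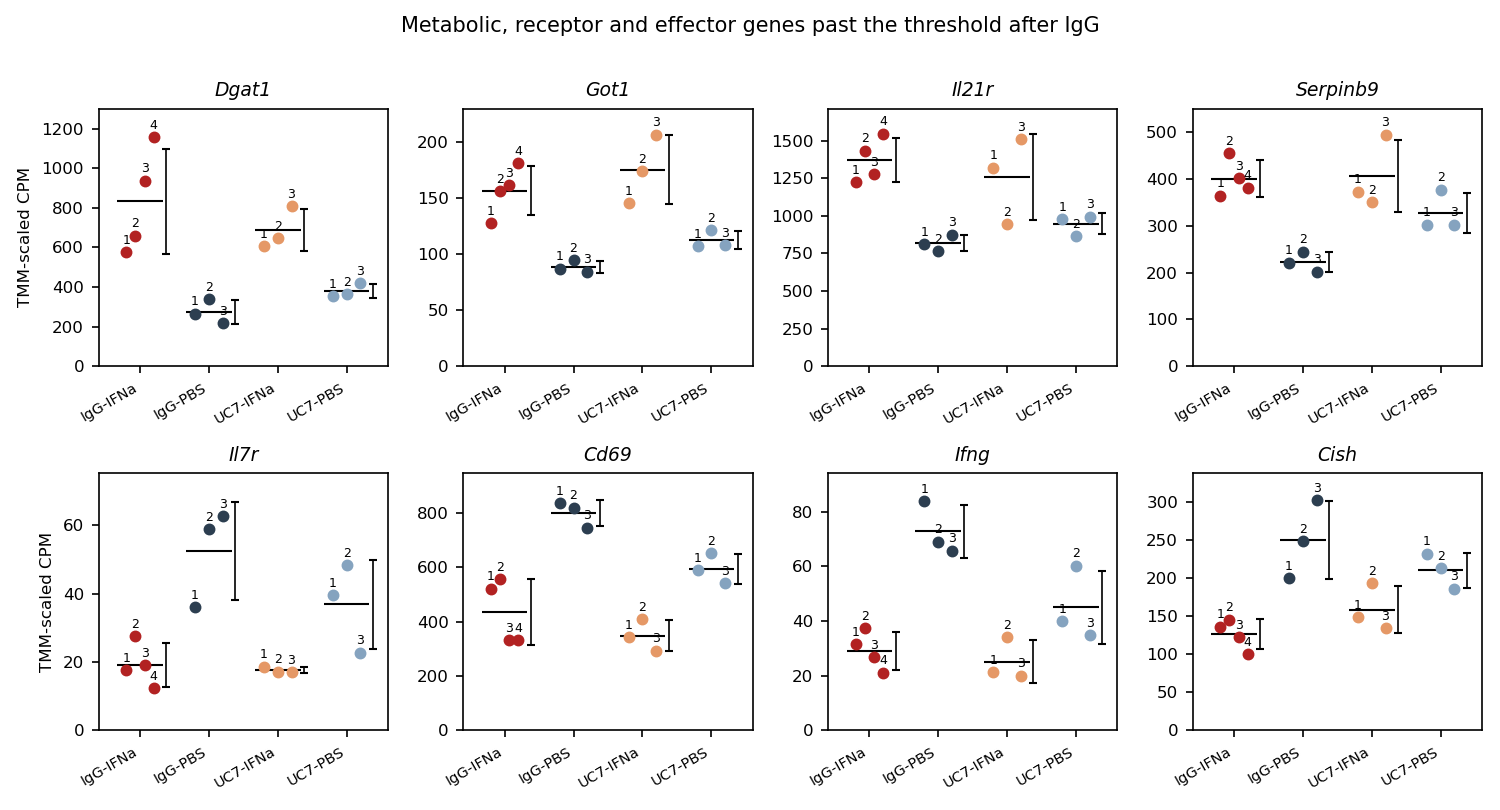
CPM of 8 metabolic, receptor, effector and feedback genes in each library of the 4 groups, each IFNa group left of its PBS group; points are libraries numbered by replicate, the line is the mean and the bar the SD. Dgat1, Got1, Il21r and Serpinb9 are higher in all 4 IgG-IFNa libraries than in the 3 IgG-PBS libraries, and Il7r, Cd69, Ifng and Cish are lower in all 4.

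Among 235 signalling and effector genes tested, 6 rose and 13 fell (8.09%, against 0.66% of all genes tested), with a median log2 fold change of -0.16. The class also holds the histone and stress lists with Fos and Jun. Of 24 cytotoxic effectors and granzyme inhibitors, 3 rose: Ctss, Serpinb9 and Serpinb6b. Ctss encodes cathepsin S, a protease of endosomes and lysosomes. Serpinb9 encodes the serpin that inhibits granzyme B and protects killer cells from it, and Serpinb6b is a member of the same serpin family. Of 22 genes of cytokine signalling feedback, 1 fell, Cish, which encodes a SOCS family inhibitor of interleukin 2, interleukin 15 and T cell receptor signals and is a textbook STAT5 target. The promoters of Ctss, Serpinb9 and Cish are shown because they carry, in letters, the elements that interferon and cytokine STAT complexes recognise, with that of Tmem140, a membrane protein gene chosen after its values were seen. Tmem140 had 184, 201, 237 and 228 CPM in the IgG-IFNa libraries, against 108, 145 and 122 CPM in the IgG-PBS libraries (log2 fold change 0.76, SE 0.15, edgeR adjusted p = 0.0227). The windows run from 250 bases before to 50 after the start in RefSeq GRCm38.p6, a build other than that of the counts, and capitals mark matches to the ISRE core GAAANNGAAA in the first 3 and to the GAS letters TTCNNNGAA in the fourth, searched on both strands. The match in Serpinb9 is on the strand opposite to the one printed.
Ctss promoter, chr3:95526536-95526835, plus strand: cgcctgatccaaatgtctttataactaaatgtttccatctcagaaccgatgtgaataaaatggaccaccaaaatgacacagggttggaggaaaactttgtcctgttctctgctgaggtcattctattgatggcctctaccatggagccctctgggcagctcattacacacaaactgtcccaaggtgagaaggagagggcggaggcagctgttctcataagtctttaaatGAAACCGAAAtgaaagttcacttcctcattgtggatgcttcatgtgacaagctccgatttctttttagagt
Tmem140 promoter, chr6:34862896-34863195, plus strand: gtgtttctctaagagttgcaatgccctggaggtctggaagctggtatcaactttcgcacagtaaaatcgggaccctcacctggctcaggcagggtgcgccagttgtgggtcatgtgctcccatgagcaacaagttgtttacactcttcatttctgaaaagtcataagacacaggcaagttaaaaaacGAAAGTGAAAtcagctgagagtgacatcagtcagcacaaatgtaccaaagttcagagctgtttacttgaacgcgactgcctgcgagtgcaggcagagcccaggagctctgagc
Serpinb9 promoter, chr13:33004291-33004590, plus strand: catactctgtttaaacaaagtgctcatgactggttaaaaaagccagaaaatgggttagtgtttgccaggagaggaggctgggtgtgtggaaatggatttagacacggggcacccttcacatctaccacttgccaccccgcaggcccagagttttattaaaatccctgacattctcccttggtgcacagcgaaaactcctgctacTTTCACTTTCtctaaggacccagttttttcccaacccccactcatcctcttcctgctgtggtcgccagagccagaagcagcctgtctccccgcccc
Cish promoter, chr9:107296409-107296708, plus strand: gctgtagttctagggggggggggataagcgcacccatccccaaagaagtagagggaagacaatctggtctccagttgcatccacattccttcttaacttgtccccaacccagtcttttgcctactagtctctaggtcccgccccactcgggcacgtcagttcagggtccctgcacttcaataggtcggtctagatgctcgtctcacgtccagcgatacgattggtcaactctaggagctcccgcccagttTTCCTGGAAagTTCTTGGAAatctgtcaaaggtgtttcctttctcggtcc

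The ISRE core was found in 3.29% of the 12917 windows of tested autosomal genes and the GAS letters in 7.08%. Counted by gene, as below, these were 404 and 860 of the 10134 genes with a window. Windows existed for 53 of the 68 higher genes, 4 of which held the ISRE core (Ctss, Tmem140, Serpinb9 and Spp1) and 3 the GAS letters, and for 23 of the 32 lower genes, 2 of which held the ISRE core and 7 the GAS letters. Of the 29 antiviral genes that rose, 21 had a window and 13 held the ISRE core. None of the 16 sterol genes with a window held either motif. Fewer than 80% of the called genes had a window, so a comparison of these shares is void. The palindromic CRE letters TGACGTCA were in 3.00% of all windows and the AP-1 letters TGANTCA in 5.47% (365 and 666 of the 10134 genes). Under the same limit, 6 higher and 0 lower genes held the CRE letters, and 7 and 3 the AP-1 letters. The ISRE core and GAS letters may overlap in a window. A match describes the letters and not a bound site.

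Ctss (ENSMUSG00000038642, chromosome 3, 95434097 to 95463715 on mm39) had 126, 126, 138 and 97.1 CPM in IgG-IFNa libraries 1 to 4, against 52.1, 67.96 and 55.6 CPM in IgG-PBS libraries 1 to 3. Library 4 was the lowest of the IgG-IFNa group and still above every IgG-PBS library (log2 fold change 1.06, SE 0.17, edgeR adjusted p = 0.00873). Serpinb9 (ENSMUSG00000045827, chromosome 13, 33187233 to 33201941 on mm39) had 364, 455, 401 and 382 CPM in the IgG-IFNa libraries, against 221, 245 and 202 CPM in the IgG-PBS libraries, without overlap (log2 fold change 0.85, SE 0.16, edgeR adjusted p = 0.0195). Serpinb6b had 418, 375, 478 and 462 CPM in the IgG-IFNa libraries, against 274, 285 and 231 CPM in the IgG-PBS libraries (log2 fold change 0.72, SE 0.15, edgeR adjusted p = 0.0368), and its close relatives in the genome could share reads with it, so its level is uncertain. The granzymes did not pass: Gzmb averaged 13142 ± 885 CPM in IgG-IFNa and 10664 ± 359.8 CPM in IgG-PBS libraries, higher without overlap but by a small amount (log2 fold change 0.30, SE 0.12, edgeR adjusted p = 0.36), and Gzma 29954 ± 4740.2 CPM in IgG-IFNa and 24156 ± 3038 CPM in IgG-PBS libraries (0.31 ± 0.20). Prf1, perforin, averaged 180.3 ± 36.2 CPM in IgG-IFNa and 217 ± 32.2 CPM in IgG-PBS libraries (-0.27 ± 0.17).

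Of 29 cytokines, chemokines and growth factors, 2 rose and 1 fell, with a median of -0.04. Cxcl16, the ligand of the residency receptor CXCR6, had 7.08, 8.83, 6.67 and 8.27 CPM in the IgG-IFNa libraries, against 3.25, 4.21 and 3.66 CPM in the IgG-PBS libraries (log2 fold change 1.06, SE 0.22, edgeR adjusted p = 0.0372). Spp1, encoding osteopontin, had 125, 129, 135 and 161 CPM in the IgG-IFNa libraries, against 85.5, 77.5 and 77.8 CPM in the IgG-PBS libraries (log2 fold change 0.78, SE 0.16, edgeR adjusted p = 0.0305). Il34, a ligand of the macrophage growth factor receptor that was among the 15 largest rises, had 15.3, 14.4, 16.3 and 21.2 CPM in the IgG-IFNa libraries, against 7.87, 5.74 and 7.48 CPM in the IgG-PBS libraries (log2 fold change 1.26, SE 0.21, edgeR adjusted p = 0.0126). These 3 genes were higher in every IgG-IFNa than in any IgG-PBS library. The 16 myeloid markers summed to 124 to 184 CPM in IgG-IFNa and 138 to 145 CPM in IgG-PBS libraries, most of it Itgax (0.08 ± 0.17), and the other 15 to 31.7 to 53.3 against 31.3 to 33.6 CPM. Of the 13 tested, 12 were above 0 and 3 were higher without overlap (23.1%, against 6.63% of all genes), with a median of 0.76, 3 higher at an unadjusted p under 0.05 and 0 called by edgeR (DESeq2 called 1 and limma 0). Of the 16, only 1, S100a8, was at 0 in all 7 libraries, and 5, S100a8 among them, in at least 1. The others were above 0 in every library, such as C1qb at 3.37 to 9.77 against 2.68 to 4.43 CPM. Lyz2 was at 3.52 to 10.7 against 3.53 to 5.21 CPM. The part of myeloid RNA in the rises of Cxcl16, Spp1 and Il34 was not tested. Ifng, the type II interferon, fell: it had 31.5, 37.5, 26.7 and 21.1 CPM in the IgG-IFNa libraries, against 83.8, 69.04 and 65.8 CPM in the IgG-PBS libraries, without overlap (log2 fold change -1.32, SE 0.24, edgeR adjusted p = 0.0169). Ctss lost its call without IgG-PBS 1 or 3 (0.98 to 1.18). Il34 lost its call without IgG-PBS 1, 2 or 3 (1.13 to 1.35). Serpinb9 and Spp1 kept their calls only without IgG-IFNa 1 (0.78 to 0.92 and 0.69 to 0.83). Their direction held in each omission, whereas the call did not. Serpinb6b kept its call only without IgG-IFNa 2 (0.64 to 0.78). Ifng kept its call only without IgG-IFNa 1 or 2 (-1.46 to -1.19). Cxcl16 lost its call in each omission (0.97 to 1.16). In the 5 libraries Ifng had -1.07 and was called.

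Of 42 genes of T cell receptor proximal signalling and its brakes, 1 rose and 2 fell, with a median of 0.03. Sh2d2a, an adaptor of the kinase Lck, had 2255, 2196, 2636 and 2822 CPM in the IgG-IFNa libraries, against 1547, 1454 and 1173 CPM in the IgG-PBS libraries (log2 fold change 0.83, SE 0.15, edgeR adjusted p = 0.0194). Sit1, a membrane adaptor that restrains T cell receptor signals, had 13.8, 8.61, 9.08 and 5.67 CPM in the IgG-IFNa libraries, against 20.9, 27.3 and 30.96 CPM in the IgG-PBS libraries (log2 fold change -1.51, SE 0.30, edgeR adjusted p = 0.0301). Ubash3a, a phosphatase family suppressor of the same receptor, had 7.28, 8.79, 5.88 and 2.99 CPM in the IgG-IFNa libraries, against 15.04, 15.6 and 18.4 CPM in the IgG-PBS libraries (log2 fold change -1.39, SE 0.27, edgeR adjusted p = 0.026). The groups overlapped for none of these, and both brakes were lowest in IgG-IFNa library 4. Cish, whose promoter is printed above (ENSMUSG00000032578, chromosome 9, 107173225 to 107179984 on mm39), had 136, 145, 123 and 99.9 CPM in the IgG-IFNa libraries, against 199, 248 and 302 CPM in the IgG-PBS libraries, lowest in the same library (log2 fold change -0.99, SE 0.18, edgeR adjusted p = 0.0174). The other SOCS genes examined by name, Socs1 and Socs3, averaged 29.9 ± 1.22 CPM in IgG-IFNa and 45.9 ± 6.57 CPM in IgG-PBS libraries (log2 fold change -0.62, SE 0.20, edgeR adjusted p = 0.217) and 50.3 ± 8.02 CPM in IgG-IFNa and 44.1 ± 6.54 CPM in IgG-PBS libraries (0.19 ± 0.16). Socs1 passed in the 7 IgG libraries fitted alone (edgeR adjusted p = 0.028) and without UC7-IFNa library 2 (0.0115), but not with DESeq2 (0.0964). Sh2d2a kept its call only without IgG-IFNa 1 or 2 (0.73 to 0.92). Sit1 kept its call only without IgG-IFNa 1 (-1.76 to -1.33). Ubash3a kept its call only without IgG-IFNa 1, 2 or 4 (-1.60 to -1.16). Their direction held in each omission, whereas the call did not. Cish kept its call only without IgG-IFNa 1 or 2 or IgG-PBS 1 (-1.13 to -0.83). Of the survival and death genes, 0 of 34 were called by edgeR, with a median of -0.02 and 2 higher and 2 lower at an unadjusted p under 0.05 (DESeq2 called 0 and limma 0). Bcl2 had -0.04 ± 0.21.

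Genes that rise quickly with stress or handling were among the falls. Of 30 dissociation and heat-shock genes, 5 fell and 0 rose: Fos, Jun, Zfp36, Ier5 and Dnajb4. The median was -0.48, with 13 members lower (4.59% of all genes tested were) and 0 higher at an unadjusted p under 0.05, and -0.56 to -0.32 over 20 other settings. Zfp36, which encodes tristetraprolin, a protein that marks cytokine messenger RNAs for decay (ENSMUSG00000044786, chromosome 7, 28076209 to 28079679 on mm39), had 77.3, 89.8, 71.5 and 71.96 CPM in the IgG-IFNa libraries, against 157, 126 and 182 CPM in the IgG-PBS libraries (log2 fold change -0.997, SE 0.18, edgeR adjusted p = 0.0174). Dnajb4, a heat-shock cochaperone, had 36.8, 50.3, 43.6 and 41.3 CPM in the IgG-IFNa libraries, against 79.7, 68.6 and 86.8 CPM in the IgG-PBS libraries (log2 fold change -0.87, SE 0.17, edgeR adjusted p = 0.0301). Ier5, an early response gene, had -0.72 ± 0.14, and Sgk1, a kinase induced by stress and steroid hormones, had -0.85 ± 0.16, both called. In UC7-IFNa against UC7-PBS libraries the median of this list was 0.22. UC7-PBS against IgG-PBS libraries, which share the IgG-PBS libraries with the main comparison, gave -0.73 for the list, -1.24 for Jun, -0.79 for Fos, -0.73 for Zfp36 and -0.84 for Dnajb4. The 3 IgG-PBS libraries were thus the highest of the 4 groups for these genes on average, and whether handling differed between the groups was not tested. Zfp36 kept its call only without IgG-IFNa 1 or 2 or IgG-PBS 2 (-1.13 to -0.86). Dnajb4 kept its call only without IgG-IFNa 2 (-0.95 to -0.78). Ier5 kept its call only without IgG-IFNa 1 or IgG-PBS 2 (-0.83 to -0.63). Their direction held in each omission, whereas the call did not. Sgk1 kept its call only without IgG-IFNa 1 or 2 (-0.96 to -0.76).

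Clustered histone genes were also among the falls. These genes are transcribed in S phase and their messenger RNAs mostly end without a poly(A) tail. Of 36 tested, 33 were below 0, 22 were lower without overlap (61.1%, against 6.99% of all genes) and 3 fell past the threshold, H1f2, H2bc4 and H2bc24, with a median of -0.95 that ran from -1.18 to -0.58 over 20 other settings. H1f2, a linker histone (ENSMUSG00000036181, chromosome 13, 23922791 to 23924351 on mm39), had 109.7, 122, 73.3 and 127 CPM in the IgG-IFNa libraries, against 351, 226 and 357 CPM in the IgG-PBS libraries (log2 fold change -1.53, SE 0.24, edgeR adjusted p = 0.00873). H2bc4 (ENSMUSG00000018102, chromosome 13, 23868182 to 23876892 on mm39) had 46.8, 60.9, 46.04 and 115 CPM in the IgG-IFNa libraries, against 281, 175 and 256 CPM in the IgG-PBS libraries, with IgG-IFNa library 4 nearest to the IgG-PBS values (log2 fold change -1.82, SE 0.37, edgeR adjusted p = 0.0343). H2bc24 was low, at 0.356, 1.71, 1.07 and 1.22 CPM in the IgG-IFNa libraries, against 6.06, 3.41 and 5.36 CPM in the IgG-PBS libraries (log2 fold change -2.18, SE 0.47, edgeR adjusted p = 0.0448). Near-identical copies and an unstated strand of counting make single histone genes uncertain. The UC7 arm's median was 0.18, and that of UC7-PBS minus IgG-PBS -0.59. H1f2 lost its call without IgG-PBS 1 or 3 (-1.72 to -1.38). H2bc4 kept its call only without IgG-IFNa 4 (-2.21 to -1.67). H2bc24 lost its call in each omission (-2.48 to -1.89).

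Other large rises belonged to no list. Wnt11, a secreted Wnt ligand, had 80.3, 75.9, 114 and 138 CPM in the IgG-IFNa libraries, against 34.1, 47.4 and 23.7 CPM in the IgG-PBS libraries (log2 fold change 1.54, SE 0.27, edgeR adjusted p = 0.0156). Gnb4, a G protein beta subunit, had 64.6, 65.3, 94.5 and 108 CPM in the IgG-IFNa libraries, against 33.5, 34.4 and 24.6 CPM in the IgG-PBS libraries (log2 fold change 1.43, SE 0.23, edgeR adjusted p = 0.00873), and Ramp3, a partner of calcitonin family receptors, had 1.41 ± 0.27. Tpm4, a tropomyosin of the actin cytoskeleton, had 1.38 ± 0.23, Isy1, a splicing factor, 1.16 ± 0.20, and Ccdc30 1.25 ± 0.21, all called and without overlap. Among the falls, Slc9a9, a sodium and proton exchanger of endosomes, had 19.98, 22.3, 15.8 and 17.7 CPM in the IgG-IFNa libraries, against 31.6, 51.1 and 36.7 CPM in the IgG-PBS libraries (log2 fold change -1.07, SE 0.23, edgeR adjusted p = 0.0448). Mmp11, a secreted metalloproteinase, had -1.27 ± 0.24, and Bcdin3d, an RNA methyltransferase, -0.88 ± 0.20, close to the threshold (adjusted p = 0.0499). Wnt11 lost its call without IgG-IFNa 3 or IgG-PBS 1 or 3 (1.33 to 1.82). Gnb4 and Tpm4 lost their calls without IgG-PBS 3 (1.28 to 1.53 and 1.15 to 1.53). Ccdc30 lost its call without IgG-PBS 1 or 3 (1.13 to 1.45). Their direction held in each omission, whereas the call did not. Ramp3 kept its call only without IgG-IFNa 1 or 2 or IgG-PBS 2 (1.21 to 1.68). Isy1 kept its call only without IgG-IFNa 1, 2 or 4 (1.04 to 1.27). Mmp11 kept its call only without IgG-IFNa 1 or 4 (-1.49 to -1.06). Slc9a9 and Bcdin3d lost their calls in each omission (-1.21 to -0.85 and -0.93 to -0.82).

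Slc15a2, which encodes a peptide transporter, was nearly absent from IgG-PBS libraries. It had estimated counts of 726, 201, 214 and 265 in IgG-IFNa libraries 1 to 4, against 1, 0 and 1 in IgG-PBS libraries. Summed and scaled to depth, the ratio was 517, with an exact 95% interval of 143 to 4274 that covers counting error only (edgeR adjusted p = 0.0368). In the UC7 arm it had 276, 181 and 400 counts in UC7-IFNa libraries, against 4, 469 and 561 in UC7-PBS libraries, so levels near 0 also occurred in 1 of 3 UC7-PBS libraries. Slc15a2 kept its call only without IgG-IFNa 1.

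Zg16 and Fcgbp, which encode secreted proteins of goblet cell mucus, were among the largest rises. Zg16 had 65.8, 51.3, 109.6 and 80.2 CPM in the IgG-IFNa libraries, against 8.09, 15.1 and 23.5 CPM in the IgG-PBS libraries (log2 fold change 2.30, SE 0.43, edgeR adjusted p = 0.0208), and Fcgbp 45.7, 64.3, 65.3 and 62.1 CPM in the IgG-IFNa libraries, against 5.76, 14.9 and 25.8 CPM in the IgG-PBS libraries (log2 fold change 1.94, SE 0.37, edgeR adjusted p = 0.0227). All 20 tested goblet and Paneth cell markers were above 0, with a median of 1.35 and 2 called, and their sum was 868 to 1631 CPM in IgG-IFNa and 147 to 841 CPM in IgG-PBS libraries. UC7-PBS minus IgG-PBS, which shares the IgG-PBS libraries, gave 2.47 for Zg16, 2.03 for Fcgbp and a median of 1.76 for the list, while UC7-IFNa minus UC7-PBS gave 0.34, 0.15 and -0.14. The part of epithelial RNA in the other rises was not tested. Zg16 kept its call only without IgG-IFNa 1 or 2 or IgG-PBS 3 (1.99 to 2.73). Fcgbp kept its call only without IgG-IFNa 1 or IgG-PBS 3 (1.54 to 2.53).

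The same genes were then read in the UC7 arm, whose 6 libraries are separate from the 7 above. Of the 68 genes that rose after IgG, 66 were above 0 in UC7-IFNa against UC7-PBS libraries and 51 were higher without overlap, and of the 32 that fell, 30 were below 0 and 15 were lower without overlap. Over all 15161 genes, the sign was shared by 61.4% and the shared sign without overlap by 9.05%. The change was smaller in the UC7 arm for 64 of the 68 and 31 of the 32, and medians were 0.95 in the IgG arm against 0.51 in the UC7 arm for the higher genes, and -1.04 against -0.41 for the lower. The genes were chosen by their test in the IgG arm, so these smaller values are a description. The 4 with opposite signs were Itgb4, Slc15a2, St8sia1 and Bcdin3d, named here after their values were seen.

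In the UC7 arm edgeR called 13 of 15161 genes (0.0857%), as 9 higher (0.0594%) and 4 lower genes (0.0264%). Of the genes called in the IgG arm, 4 were among them, which is 5.88% of the 68 and 44.4% of the 9: Ctss, Trafd1, Gm12253 and Gm20559, the last 3 named after their values were seen. Ctss had 110.1, 162 and 134 CPM in the UC7-IFNa libraries, against 71.2, 63.9 and 66.01 CPM in the UC7-PBS libraries, where its log2 fold change was 1.01. DESeq2 called 11 of the 68 higher genes in the UC7 arm and limma 4. Of the 32 lower genes edgeR called 0, DESeq2 5 and limma 0. At an unadjusted p under 0.05 in that arm were 49 of the 68 and 14 of the 32, against 6.94% of all genes. Without UC7-IFNa library 2, 5 of the 68 and 2 of the 32 were called.

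Some genes are given here by how near their values in the 2 arms came, which was not compared between genes by a test. On the log2 scale Relb had 0.80 in the IgG arm and 0.80 in the UC7 arm, Myc -0.99 and -0.95, Cd69 -0.88 and -0.77, and Slc9a9 -1.07 and -1.12. Dgat1 had 606, 647 and 809 CPM in the UC7-IFNa libraries, against 355, 363 and 421 CPM in the UC7-PBS libraries (1.61 in the IgG arm, against 0.86 in the UC7 arm). Farther apart were Crem at 1.17 and 0.40, Jun at -1.47 and -0.41, Serpinb6b at 0.72 and 0.05, and Cd6 at -1.32 and -0.11. The difference between the arms was itself tested: edgeR called 0 of 15161 genes (0%), with 461 at an unadjusted p under 0.05 (3.04%), DESeq2 called 1, Slc15a2, and limma 0. For the genes named here the difference holds the contrast that chose them, so its size is a description. For Jun the difference of the log2 fold changes, IgG minus UC7, was -1.07 ± 0.38 (SE), and for Crem 0.78 ± 0.27. A p that misses the threshold does not show that the arms respond alike. The arms also differed in Y-linked transcripts and Xist, and the part of this in their differences cannot be told apart from that of the antibody.

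**Figure D5:**
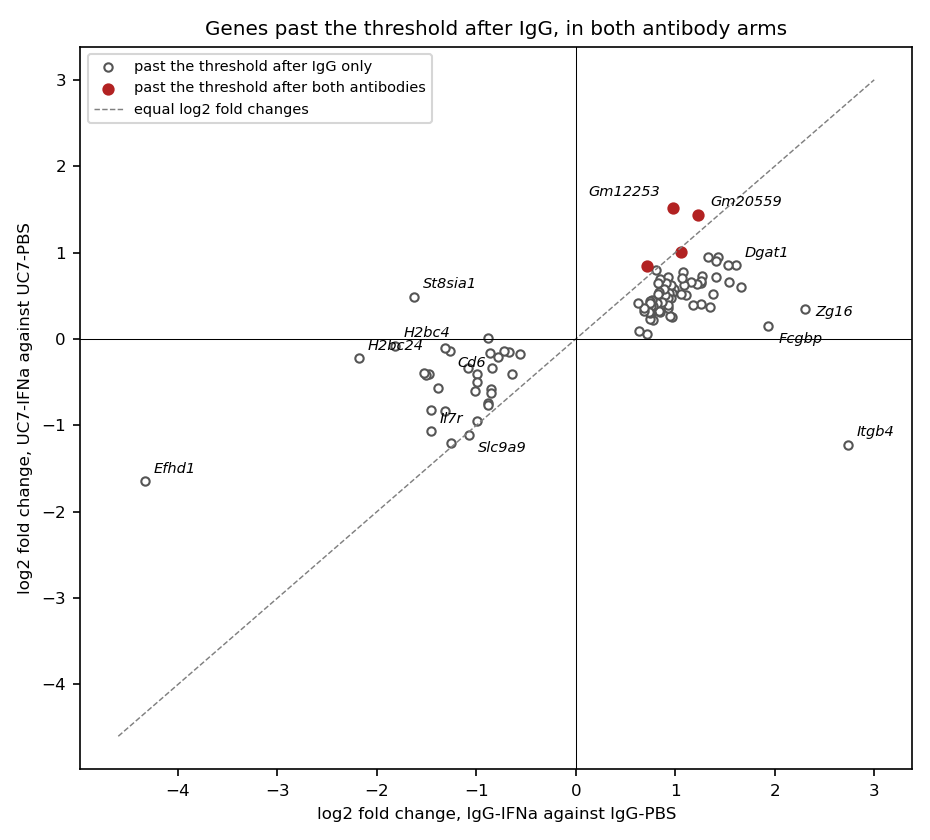
Log2 fold change of the genes called after IgG, IgG-IFNa against IgG-PBS on the horizontal axis and UC7-IFNa against UC7-PBS on the vertical axis, Slc15a2 not drawn; filled points were called in both arms. Most points lie in the quadrants where the signs are shared and nearer to 0 on the vertical axis, with medians of 0.51 and -0.41 in the UC7 arm.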

How the data were processed

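Bulk RNA-seq used the SMART-Seq HT library kit (labels' protocols). STAR 2.7.8a, Partek, DESeq2 and the build mm39 appear in the submitters' processing notes without their roles. The authors deposited estimated counts for 21084 genes, 38.0% of the values not whole, and a table of normalized counts (signal), used only for the limma alternative. Totals of 19867201 to 26895876 counts limit precision for low genes. Every per-sample column was matched to a sample.

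Counts were rounded, filtered with filterByExpr (minimum count 10, 15835 genes left) and scaled by TMM. One quasi-likelihood model with a term per group was fitted to all 13 libraries (edgeR 4.0.16, R 4.3.3). Tests were two-sided, with Benjamini-Hochberg adjustment over all tested genes and a threshold of 0.05. The SE was the size of the log2 fold change over the square root of F. CPM are TMM-scaled, and ± is SD for CPM and SE for log2 fold changes. Alternatives were DESeq2 1.42.0, limma 3.58.1, other scaling, filters, sample sets, the relative level of Y-linked transcripts as a covariate and a replicate block. The model was tested on simulated data.

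Genes named were up to 15 largest rises and falls that passed, non-overlapping, not clone names and at a mean log2 CPM of 3 or more, every called member of the lists of factors, metabolism, receptors, signalling and effectors, and 29 fixed genes. Of 1235 list symbols, 1193 were in the table, 1 by a synonym. The genes, lists and tests were chosen with earlier results of these data known. RefSeq promoter windows (GRCm38.p6) were joined by symbol. Values of some list members are not reported here.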

Additional observations from a re-analysis of the deposited data

Results flagged for a closer look

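Among the 4 IgG-IFNa libraries, 1 library lay far from the other 3 for 5 of 77 named genes, and chance alone gives this for about 1 in 20 groups. Slc15a2 was at 28.7 CPM in library 1, Fcgbp at 45.7 CPM in library 1, Cd3e at 811 CPM in library 1, Irf1 at 387 CPM in library 4 and Il15ra at 30.1 CPM in library 3. Of these, Slc15a2 and Fcgbp were called higher.

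Transcripts outside the autosomal comparison also stood out: 4 Y-linked transcripts summed to 210.0 CPM in IgG-IFNa library 3 and 320.3 CPM in IgG-IFNa library 4, against at most 0.310 CPM in the IgG-PBS libraries. Xist was present in both, at 68.3 and 23.4 CPM. What these libraries held besides was not tested.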

How the results depend on the processing

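The number of autosomal genes called outside the antiviral list (100, as 68 higher and 32 lower), of all autosomal genes called (129) and of the genes called after IgG in the same fit that were also called in the UC7 arm (4) moved with the libraries in the fit and with the tool, DESeq2 giving the highest count in the UC7 arm. Leaving out each IgG library in turn gave 6 to 89 genes outside the list, 5 to 74 higher, 1 to 21 lower, 23 to 112 autosomal genes and 0 to 4 in the UC7 arm. DESeq2 gave 342 (234 and 108), 392 and 31, with 1 gene for the difference between the arms. The 7 IgG libraries alone gave 281 (183 and 98) and 338. Without UC7-IFNa library 2 there were 365 (239 and 126), 420 and 21. Without IgG-IFNa libraries 3 and 4 there were 2 (2 and 0), 20 and 1. The level of Y-linked transcripts, relative to the highest library, as a covariate gave 4 (3 and 1), 23 and 2, and 89, 140 and 23 with UC7-IFNa library 2 also left out. The cause of these moves was not tested. That covariate in the 7 IgG libraries gave 94, and the 5 IgG libraries with no more than traces of these transcripts gave 108; these 2 settings were chosen after seeing the data. Other scaling, filters and limma gave 86 to 119.

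The replicate numbers did not pair the samples: same-numbered libraries' deviations correlated at -0.20, -0.13 and -0.00093. With the number as a block, where IgG-IFNa library 4 is alone, 8 genes (4 and 4), 27 and 1 were called.

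No gene of the 100 changed sign in any setting that tested it. Of 49 named called genes, 3 kept the call in each omission of 1 library, 6 kept it in none, 32 kept it in the 5 libraries and 46 in the 7. Not called in the 5 libraries were Relb, Myc, Nmnat3, Il7r, Cd69, Cd6, Serpinb6b, Cxcl16, Ier5, Sgk1 and H2bc24. Nor were Wnt11, Ramp3, Tpm4, Slc9a9, Zg16 and Fcgbp. For Slc15a2 depth leaves a counting interval of 143 to 4274 on the ratio, beside a spread of 4 to 561 counts between UC7-PBS libraries.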
